A study of Blattella germanica with 8 samples.

Results

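PSN37808 is a predicted protein of the German cockroach Blattella germanica, and its transcript took up more counts than any other in the conglobate gland libraries described here. It is 1 of the 30784 rows of the count table, and it was selected on this level, its share of the counts in the libraries below, so its high level is a description and not a finding. The row is BGER020789-RA. The table gives no names, and the row was matched to PSN37808 (Bger_25234 in the study's list of gland-enriched genes) by level alone. A scale was first set on BGER021014-RA, the row taken as BgILP8, the insulin-like peptide of the gland. That row has no name in the table either, and its identity was taken as given. On this scale the level of BGER020789-RA differed from that list by 1.52%. The next best row, off by 2.79-fold, was the row with the second most counts, so this gap restates the lead given below. The study made that list with its Control gland libraries, so the close level is not an independent measurement.

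The libraries come from male conglobate glands dissected on adult day 7, from animals injected with 2 µg of dsRNA on day 7 of nymphal instar 6. Control animals (dsMock in the labels, n = 4 libraries) received a non-homologous dsRNA, and dsILP8 animals (n = 4 libraries) a dsRNA against BgILP8. All came from 1 laboratory population fed on dog food. The sources used here do not say how many glands went into a library, and the spread between libraries may be partly technical. In bulk RNA of whole glands fewer cells of a type and less RNA per cell cannot be told apart.

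The conglobate gland is an accessory gland of the male cockroach. Its tubules are lined by secretory cells, and its products enter the spermatophore, the sperm package handed to the female at mating. Secretory tissues of this kind often devote much of their mRNA to a few products, and in insects many proteins of male accessory glands resemble no protein of known function. The study's BLAST search named no protein of known function for PSN37808, and the protein model lacks its start, so a signal peptide, the leader that sends a protein into the secretory route, could not be judged from it. No role is therefore given here.

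The study mapped its reads to version 1.1 of the B. germanica assembly. In the Bger_1.1 reference table PSN37808 is locus C0J52_25234 on scaffold PYGN01001078.1, from 18870 to 373420. The locus spans 354551 bases with its introns, which ranks 10 among the 28774 genes of the table, where the median span is 6877. The scaffold holds 3 genes in all. PSN37809 (11377 to 90179) overlaps the start of the span and PSN37807 (113753 to 135134) lies inside it. The sources used here do not say whether reads were counted by strand, and which rows hold these other loci is not known, so reads of overlapping loci cannot be told apart. No sequence of PSN37808 was used here.

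The libraries held 9060546 to 11461055 counts. BgILP8, the target of the dsRNA, stood at 1829, 2849, 2106 and 1824 CPM (the count of a row relative to all counts of its library) in Control libraries 1 to 4. In dsILP8 libraries 1 to 4 it stood at 57.3, 90.0, 113 and 108 CPM. Its row was taken as given, so these levels are no independent check of the labels. BgILP8 was the 1 row of the 14444 tested (0.00692%) that passed an FDR of 0.05 with a log2 fold change beyond 1 in edgeR's quasi-likelihood test. The study used DESeq2 with the same thresholds and reported 3 genes, all lower in dsILP8 glands. DESeq2 on the 14444 rows tested here also called 3, all lower. The dsILP8 replicate 1 library stood apart. In it 164 rows with 20 counts or more exceeded each of the other libraries by a factor of at least 8, and they held 9.64% of its counts, against 0 to 16 such rows and at most 2.03% in the other 7 libraries. Names were matched only for abundant rows, so no marker list of another tissue could be checked.

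The row of PSN37808 held 1850132, 1864998, 2130214 and 2059062 counts in Control libraries 1 to 4 and 1852174, 1735839, 1978194 and 1594709 in dsILP8 libraries 1 to 4. As a share of all counts this was 16.1%, 19.2%, 22.0% and 22.1% in Control and 16.9%, 19.2%, 19.0% and 15.8% in dsILP8 glands. It ranked 1 in all 8 libraries. Its groups overlapped, while those of 2.33% of the 14444 rows tested did not. The widest 95% Wilson interval of a share reached 0.0266 points to either side, which covers counting error only. The spread between libraries was thus far above counting error. The highest share was 1.37 times the lowest in Control and 1.21 times in dsILP8 glands.

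**Figure D1:**
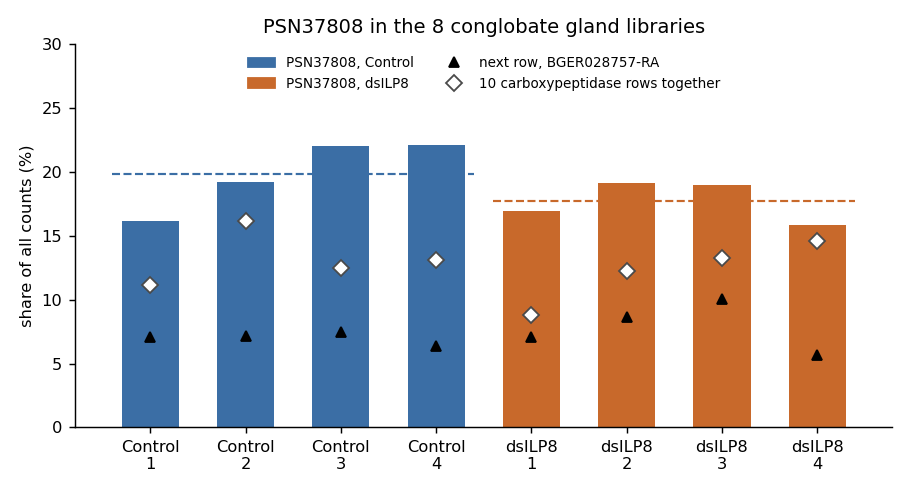
Share of all counts in percent (vertical axis) in the 4 Control and 4 dsILP8 libraries (horizontal axis, by replicate). Bars are the row of PSN37808, dashed lines its group means (19.8% and 17.7%), triangles the row with the next most counts and diamonds the 10 serine carboxypeptidase rows summed. Every bar, from 15.8% to 22.1%, stands above both other marks of its library.

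Compared with other abundant rows, the level of PSN37808 was neither among the steadiest nor among the most variable in Control libraries. Its coefficient of variation of CPM was 14.2% in Control, rank 23 from the lowest among the 50 rows with the highest Control CPM, whose median was 16.2%. In dsILP8 libraries it was 9.07%, rank 9 from the lowest of the same 50 rows, whose median was 22.0%. Each of these rests on 4 libraries, and the difference between the 2 values was not tested.

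The share is set beside the depth of the library next. Control replicate 1 had the most counts of the 8 libraries, 11461055, and the lowest Control share, 16.1%, while Control replicate 4 had the fewest Control counts, 9328920, and the highest share, 22.1%. Over the 8 libraries the share and the total had a Pearson r of -0.684 (exact permutation p = 0.0645) and a Spearman rho of -0.714 (exact permutation p = 0.0576). Without the 2 libraries farthest from the median total, Control replicate 1 and dsILP8 replicate 1, r was -0.443 (exact permutation p = 0.376), so that the relation rests in part on those libraries, and without dsILP8 replicate 4 it was -0.793 (exact permutation p = 0.0395). On deviations from the group means r was -0.751 (permutation p = 0.0307). That permutation mixed the groups after their means were removed, so its p is not exact and is not relied on. This relation was looked at after the data were seen. The total is also the divisor of the share, which by itself can pull r below 0. The p-values do not allow for this. A part of depth in the results below was not tested.

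Because the row held so large a share, it also moved the CPM of all other rows. What was left for the other rows was 77.9% of the counts in Control replicate 4 and 84.2% in dsILP8 replicate 4, a ratio of 1.08 or 0.11 on the log2 scale. Between the groups the other rows held 80.2% in Control and 82.3% in dsILP8 libraries, a shift of 0.038 on the log2 scale.

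Next to PSN37808 came the row of a lipocalin allergen. Lipocalins are small proteins that carry hydrophobic molecules, and Bla g 4 is a cockroach allergen of this family. The Bla g 4 isoallergen row BGER028757-RA (Bger_21210) had the second most counts in all 8 libraries, with 70002 ± 4630 CPM in Control (SD, n = 4) and 78663 ± 18886 CPM in dsILP8 glands (SD, n = 4), where PSN37808 had 198494 ± 28110 CPM (SD, n = 4) and 177238 ± 16084 CPM (SD, n = 4). CPM is not scaled for transcript length, and no transcript lengths were used, so that these are leads in counts and not in molecules per cell.

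In Control libraries 1 to 4 PSN37808 held 2.29, 2.70, 2.95 and 3.47 times the counts of BGER028757-RA. In dsILP8 libraries 1 to 4 the ratio was 2.38, 2.21, 1.89 and 2.79. The lead was thus smallest in dsILP8 replicate 3, where BGER028757-RA reached 100278 CPM, and the ranges overlapped. The ratio was 2.85 ± 0.495 (SD, n = 4) in Control and 2.32 ± 0.376 (SD, n = 4) in dsILP8 glands (exact two-sided permutation test, p = 0.171). The ratio of the mean CPM was 2.84 in Control and 2.25 in dsILP8 glands.

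The other rows of the 10 with the most counts lay further below. BGER010768-RA had 40374 ± 2486 CPM in Control (SD, n = 4), so that PSN37808 had 4.92 times its counts. The serine carboxypeptidase row BGER001852-RA (Bger_00081), one of a family of enzymes that trim proteins at their carboxyl end, had 37327 ± 7913 CPM (SD, n = 4), a lead of 5.32 times. BGER020452-RA had 31392 ± 16461 CPM (SD, n = 4), with 17749 to 55300 CPM in single Control libraries, which overlapped those of its neighbours in the order. The other 5 of these rows, BGER028759-RA (the second matched Bla g 4 row, Bger_21212), BGER001851-RA (carboxypeptidase Bger_00080), BGER002354-RA, BGER024485-RA and BGER020110-RA, had mean Control levels of 28003 down to 16159 CPM, and PSN37808 had 7.09 to 12.3 times their counts.

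On the Control means the 5 next rows together were needed to exceed the counts of PSN37808. Within single libraries it took 3, 4, 6 and 7 rows in Control libraries 1 to 4 and 5, 5, 4 and 4 in dsILP8 libraries 1 to 4. The 10 rows with the most counts held 49.1% of all Control counts and 11 rows were enough for 50%. BgILP8 itself, at rank 34 of the Control means, had 1 count for every 92.2 of PSN37808.

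**Figure D2:**
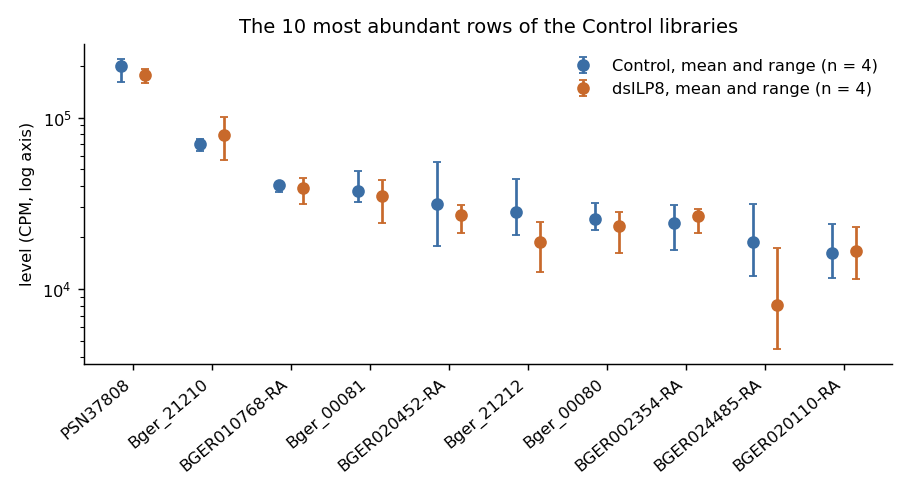
CPM on a log axis for the 10 rows with the most counts in Control libraries, in order of the Control mean. Points are means of 4 libraries and bars run from the lowest to the highest library, for Control and dsILP8. PSN37808, at 161428 to 220718 CPM in Control libraries, lies apart from the second row at 63589 to 74633 CPM, while the bars of rows further down overlap.

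The rows with the identifier numbers next to BGER020789-RA were empty. The 3 rows before it (BGER020786-RA to BGER020788-RA) and the 3 after it (BGER020790-RA to BGER020792-RA) had 0 counts in all 8 libraries, which allows up to 3 counts in a library. PSN37808 had at least 1594709 counts in the same libraries, so its level was at least 531570 times that floor. In the table, 37.6% of all rows had no count in any library. Among the 20 rows with the most Control counts PSN37808 was the 1 row whose 6 nearest rows by number were all at 0, and the median of the 20 was 0 such rows. The carboxypeptidase rows among them have one another as neighbours, which lowers that median. The sources used here do not say whether the numbers of rows follow position in the genome.

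Of the 10 rows on either side, 10 of the 20 were at 0 in all libraries and 7 reached a mean of 1 CPM in Control. Together the 20 rows held 0.0526% ± 0.0150 of Control counts (SD, n = 4) and 0.0633% ± 0.0256 of dsILP8 counts (SD, n = 4). The most abundant was BGER020785-RA, 4 rows before PSN37808, with 334 ± 123 CPM in Control (SD, n = 4) and 409 ± 228 CPM in dsILP8 libraries (SD, n = 4). Of the dsILP8 libraries replicate 1 was far the highest for this row, with 749 CPM against 268 to 327 CPM in the other 3. BGER020780-RA, 9 rows before, followed with 107 ± 46.2 CPM in Control (SD, n = 4). After PSN37808 the highest was BGER020798-RA with 51.8 ± 8.11 CPM in Control (SD, n = 4), then BGER020797-RA with 22.2 ± 2.69 CPM (SD, n = 4). BGER020795-RA, BGER020799-RA and BGER020800-RA had 3.51 to 3.86 CPM in Control. Even BGER020785-RA, the highest of the 20, was exceeded by PSN37808 in mean Control CPM by a factor of 595.

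**Figure D3:**
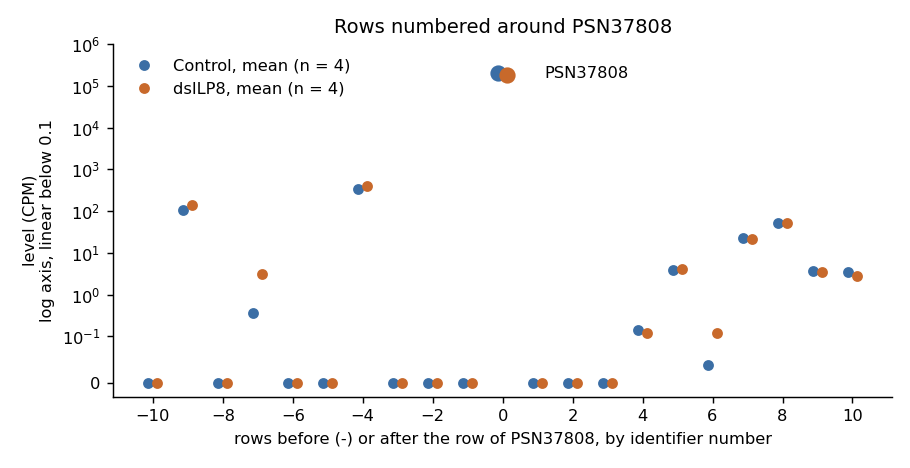
Mean CPM over the 4 Control and the 4 dsILP8 libraries of the 10 rows numbered before and the 10 numbered after the row of PSN37808 (position 0), on an axis that is logarithmic above 0.1 CPM and linear below. The 3 rows on each side of PSN37808 are at 0, and the highest row of the window, at position -4, reaches 334 CPM in Control.

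The counts of PSN37808 were not whole in any of the 8 libraries, since reads with several mapping places were split between them. The same held for 17 of the 20 rows with the most Control counts, and none of the 20 was whole in all libraries. How many of the reads of PSN37808 were shared with other places cannot be read from the deposited values, and its level is uncertain to that extent.

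PSN37808 held more counts than the 10 serine carboxypeptidase rows together in 8 of 8 libraries. Its share was 1.45, 1.19, 1.77 and 1.68 times theirs in Control libraries 1 to 4 and 1.92, 1.57, 1.43 and 1.09 times in dsILP8 libraries 1 to 4. The lowest of these, dsILP8 replicate 4, combined the lowest share of PSN37808, 15.8%, with a carboxypeptidase share of 14.6%. The highest, dsILP8 replicate 1, had the lowest carboxypeptidase share, 8.80%. No relation between the 2 quantities was resolved. Pearson's r of log2 CPM over the 8 libraries was 0.252 (exact permutation p = 0.567, 0.997 after Benjamini-Hochberg adjustment over 2 relations) and Spearman's rho was 0.167 (exact permutation p = 0.703, 0.977 after adjustment). Without Control replicate 4 and dsILP8 replicate 4, the 2 libraries farthest from the median level of PSN37808, r was 0.528 (exact permutation p = 0.257). Without dsILP8 replicate 1 r was 0.0218. With CPM over the counts that leave out PSN37808, the carboxypeptidase and the Bla g 4 rows r was 0.572 (exact permutation p = 0.132).

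The single carboxypeptidase rows were also weakly related to PSN37808. On deviations from the group means, r to PSN37808 over the 8 libraries ran from -0.00729 (BGER001852-RA, Bger_00081) to 0.332 (BGER001860-RA, Bger_00089), with a median of 0.142, and was above 0 for 9 of the 10. Over all 4611 other rows with a mean of at least 10 CPM the median was -0.146 and 36.7% were above 0. All these rows share the library total with PSN37808, and neighbouring carboxypeptidase rows can share reads, so the values describe these libraries and were not tested.

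The 2 Bla g 4 rows together held 11.4%, 9.17%, 9.82% and 8.76% of the counts in Control libraries 1 to 4 and 8.96%, 9.91%, 12.0% and 8.12% in dsILP8 libraries 1 to 4. PSN37808 had 1.41 to 2.52 times their counts in Control and 1.58 to 1.95 times in dsILP8 libraries. Their sum showed no relation to PSN37808 that 8 libraries could resolve. Pearson's r was 0.00174 (exact permutation p = 0.997, 0.997 after adjustment over 2 relations), Spearman's rho was -0.0238 (exact permutation p = 0.977, 0.977 after adjustment), and r without the same 2 farthest libraries was -0.179 (exact permutation p = 0.726). Over the counts that leave out PSN37808 and both sets of rows r was 0.412 (exact permutation p = 0.308).

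The 2 Bla g 4 rows are given apart, since their values had opposite signs. On deviations from the group means BGER028757-RA (Bger_21210) had an r of 0.441 to PSN37808 and BGER028759-RA (Bger_21212) one of -0.768, which is position 4450 of 4611 in order of likeness. BGER028759-RA was highest in Control replicate 1, with 43842 CPM against 20560 to 24057 CPM in the other 3 Control libraries, and this is the Control library with the least PSN37808. Without the group means removed its r was -0.297. These values describe 8 libraries and were not tested.

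**Figure D4:**
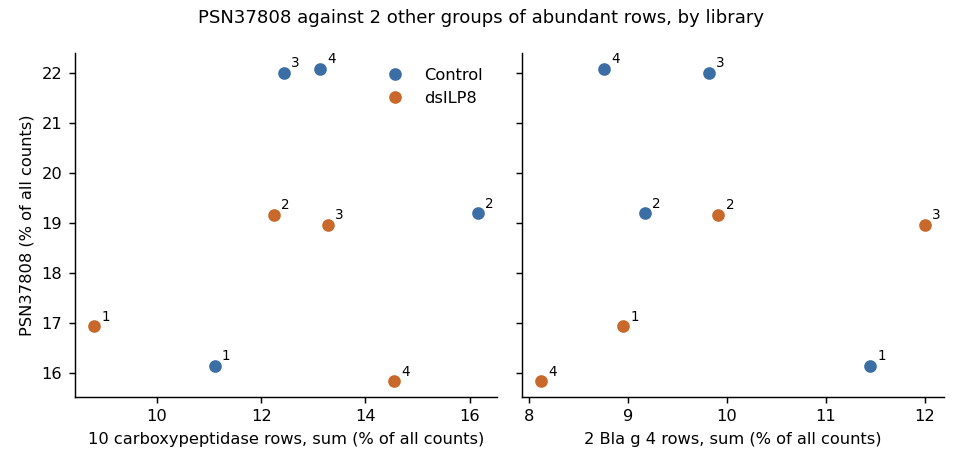
Share of PSN37808 (vertical axis, percent of all counts) against the summed share of the 10 carboxypeptidase rows (left) and of the 2 Bla g 4 rows (right). Each point is 1 library, numbered by replicate within its group. The r of log2 CPM was 0.252 on the left and 0.00174 on the right.

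The other abundant rows went both ways. Of the 9 rows next in Control counts, 4 had an r above 0 on deviations from the group means, and their median was -0.00729. BGER002354-RA had 0.424 and BGER010768-RA 0.315, while BGER024485-RA had -0.626, BGER020110-RA -0.541 and BGER020452-RA -0.523. The last 3 were highest of their group in Control replicate 1, with 31238, 23828 and 55300 CPM.

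The rows most like PSN37808 in this measure were far less abundant. BGER026441-RA had the highest r, 0.946, with 61.9, 71.7, 76.7 and 79.4 CPM in Control libraries 1 to 4 and 70.3, 77.4, 73.4 and 70.6 CPM in dsILP8 libraries 1 to 4. As for PSN37808, Control replicates 3 and 4 were its highest and replicate 1 its lowest Control library. BGER000948-RA (0.932), BGER022347-RA (0.929), BGER029925-RA (0.921) and BGER009737-RA (0.921) followed, with means of 10.4 to 45.2 CPM. In all, 12 of the 4611 rows had an r above 0.9. At the other end were BGER019852-RA (-0.979), BGER016654-RA (-0.971) and BGER021395-RA (-0.956), with means of 13.6 to 27.6 CPM. All 8 were picked as extremes of a ranking over 8 libraries, and the table gives them no names. BgILP8 had an r of 0.0992 by the same measure.

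The last question was whether the knockdown of BgILP8 changed the transcript. PSN37808 stood at 19.8% ± 2.81 of all counts in Control (SD, n = 4) and at 17.7% ± 1.61 in dsILP8 glands (SD, n = 4), a difference of -2.13 percentage points that the spread between libraries covers (exact two-sided permutation test over 70 assignments, p = 0.2). Of the 4 Control libraries 3 lay above every dsILP8 library, Control replicate 2 only just, and Control replicate 1 lay below 3 of the 4. Without Control replicate 1, the lowest Control library, the groups no longer overlapped and the difference was -3.36 points (exact permutation p = 0.0286, the smallest that 3 against 4 libraries allow). That library is also the deepest, and leaving it out by its outcome is no independent test. Without Control replicate 4 the difference was -1.38 points.

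In edgeR's quasi-likelihood test the log2 fold change of BGER020789-RA was -0.21, with a standard error of 0.15, a 95% interval of -0.54 to 0.13 and an FDR of 0.998. This corresponds to 86.6% of the Control level, with an interval from 68.6% to 109%. A larger loss of the transcript lies outside this interval, while a moderate decrease and no change lie inside it. By unadjusted p (0.198) the row ranked 2524 of 14444, and 47.6% of all rows tested had a larger change in either direction. The median log2 fold change of all rows was -0.0045, and BgILP8 in the same fit had -4.58 (standard error 0.25, FDR = 0.000127).

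The fold change stayed below 0 in all 20 other fits. It ran from -0.29 with library sizes that leave out the 20 most abundant rows to -0.16 with all normalization factors at 1, and from -0.30 to -0.12 with 1 library left out (Control replicate 1 and Control replicate 4). No fit brought it past the threshold, and the FDR was 0.802 to 1. Leaving PSN37808 out of the library sizes gave -0.21. In dsILP8 replicate 1 the share was 16.9%. It was 18.7% when the rows far above the others in any 1 library were left out of the totals of all libraries. The difference between the groups was then -1.58 points.

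**Figure D5:**
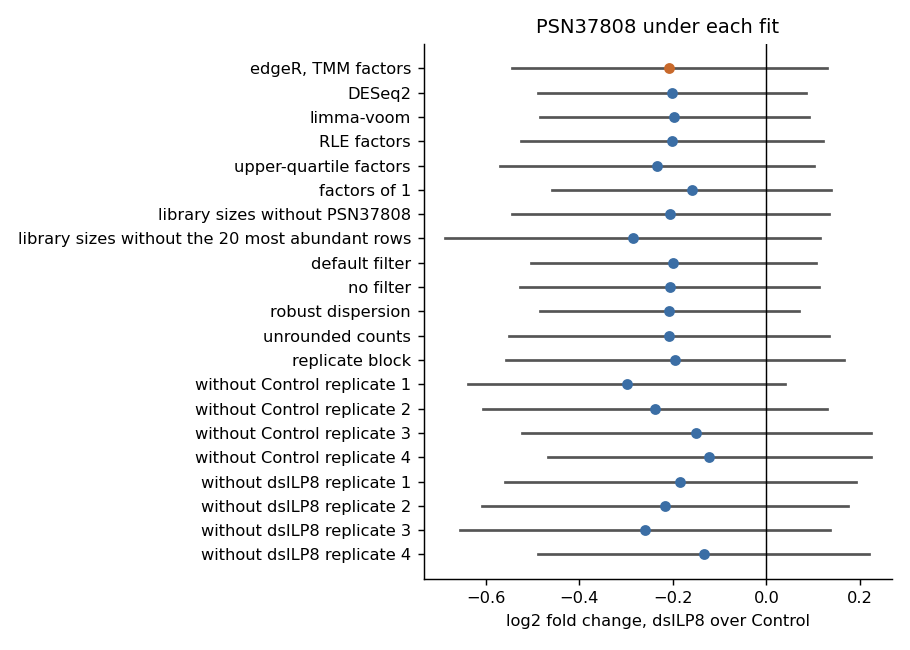
Log2 fold change of PSN37808, dsILP8 over Control (horizontal axis), in the edgeR fit with TMM factors (top, orange) and in 20 other fits (blue), with 95% intervals as lines. All points lie between -0.30 and -0.12, and every interval crosses 0.

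Of the 9 rows next in counts 0 passed the thresholds in edgeR, DESeq2 or limma-voom. By unadjusted p in edgeR 1 of them, BGER024485-RA, lay under 0.05, as did 567 of all 14444 rows tested. The smallest edgeR FDR among the 9 rows was 0.998. For these 9 rows the log2 fold change spanned -1.28 (BGER024485-RA) to 0.13 (BGER028757-RA), with 7 of 9 below 0. The median of the 9 rows was -0.13, beside a median of -0.0045 over all rows. In dsILP8 libraries the 5 rows with the most counts were in the same order as in Control, while BGER024485-RA went from rank 9 to 16. The ratio of PSN37808 to BgILP8 counts went from 92.2 in Control to 1927 in dsILP8 glands, and BgILP8 went from rank 34 to 839.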

How the data were processed

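Conglobate gland mRNA of 4 Control and 4 dsILP8 samples was sequenced from stranded libraries. The authors used FastQC 0.11.7, Trimmomatic 0.39, HISAT2 2.1.0 and featureCounts (Rsubread 2.12.3). The deposited values are expected counts, in which a read mapping to several places is split into fractions. Strand setting: not given in the sources used here. Columns were tied to samples by the library names in the labels.

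Counts were rounded, and the study's filter, which drops a row at zero in over 4 libraries, kept 14444 rows. Rows were tested in R 4.3.3 with the quasi-likelihood test of edgeR 4.0.16, TMM factors and Benjamini-Hochberg adjusted p-values, with DESeq2 1.42.0 and limma 3.58.1 (voom) as alternatives, all tested on simulated data. The standard error in edgeR is the log2 fold change divided by the root of F. CPM and shares used unrounded counts over all counts. Likeness was Pearson's r of log2(CPM + 0.5) as deviations from the group means. Figures used matplotlib 3.10.9 under Python 3.11.15.

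The member, the lists and the tests were chosen with earlier results of these data known. Named are PSN37808 and BgILP8, the 9 rows next in Control CPM, rows within 10 numbers that reach 1 CPM or lie next to it, the matched carboxypeptidase and Bla g 4 rows, and the 5 rows most and 3 least alike. The carboxypeptidase and Bla g 4 rows were matched by level and order to the study's list of gland-enriched genes. Alternatives were other tools, normalizations, library sizes, filters, denominators, windows, the replicate number as a block, and each library left out.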

Additional observations from a re-analysis of the deposited data

Results flagged for a closer look

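In 60 groups of 4 libraries searched for a sample far from the others, 7 passed Dixon's test at its 95% critical value, where chance gives about 1 in 20 groups. PSN37808 itself was not among them in either group. In Control replicate 1, BGER010768-RA was low (36680 CPM, gap over range 0.859) and the Bla g 4 row Bger_21212 was high (43842 CPM, 0.850). In Control replicate 2 the carboxypeptidase row Bger_00081 was high (49114 CPM, 0.869). In dsILP8 replicate 4 BGER024485-RA was high (17291 CPM, 0.894). Near PSN37808 by number, BGER020785-RA was high in dsILP8 replicate 1 (749 CPM, 0.879), and with it the summed share of the 20 surrounding rows (0.101%). BGER020800-RA was high in dsILP8 replicate 2 (3.64 CPM, 0.922).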

How the results depend on the processing

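Of 99 values under an alternative, 82 left the direction and the call as they were or stayed within the spread. The log2 fold change of PSN37808 stayed uncalled in all 20 other fits, from -0.30 to -0.12 with 1 library left out. The count of rows called in edgeR was 1, and 1 without each library, but 3 with DESeq2, 2 with library sizes that leave out PSN37808, 2 with robust dispersion and 2 with the replicate number as a block. Samples with the same replicate number in their titles deviated together with correlations of -0.0501, -0.0841, 0.0453 and 0.145. The library names carry mostly other numbers, and correlations of differently numbered samples were not computed. Whether the samples are paired therefore cannot be told from these values. With the block the log2 fold change of PSN37808 was -0.20 (FDR = 1 from edgeR). The share difference ran from -3.36 to -1.38 points with 1 library left out, and reached an exact permutation p of 0.0286 without Control replicate 1. It was -4.38 points with the 20 most abundant other rows left out of the total (exact permutation p = 0.143). With that smaller total the mean shares were 32.3% in Control and 27.9% in dsILP8 libraries, so these points are on a larger base. The lead over the next row was 2.25 in dsILP8 libraries and 2.65 to 3.02 with 1 Control library left out.

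The correlation with the Bla g 4 sum changed sign on deviations from the group means (-0.0200), on CPM (-0.0451) and without the 2 farthest libraries (-0.179), and ran from -0.382 to 0.301 with 1 library left out. It was 0.251 with TMM library sizes and 0.412 with counts that leave out PSN37808, the carboxypeptidase and the Bla g 4 rows. The correlation with the carboxypeptidase sum was 0.303 and 0.572 under these settings, 0.160 on deviations, 0.211 on CPM, 0.528 without the 2 farthest libraries and 0.0218 to 0.524 with 1 library left out. None of these passed the permutation test at 0.05, which is not exact for the values on deviations. The correlation of share and library total, which is the divisor of the share, was -0.684. It ran from -0.793 to -0.582 with 1 library left out. The rows around PSN37808 held 0.0338% with 5 and 0.0683% with 25 rows a side, since the windows differ in size, and 0.0472% to 0.0593% with 1 Control library left out. For the other changes the cause was not tested. The spread of the share between libraries was larger than its counting error, and a part of depth in that spread was not tested.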
